A study of Drosophila melanogaster with 4 samples.

Results

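Ab peaks were counted in the spans of 161 array genes, out of 183 genes that the study lists because the array holds more than 1 probe set for them and because expression of the gene differed from control discs. A member had all its probe set alignments on 1 of the 5 major chromosome arms (2L, 2R, 3L, 3R or X) and no browser panel among the genes that the study drew. Of the other genes, 11 have such a panel and 11 have an alignment on another sequence. The span of a gene ran from the lowest to the highest aligned position of its probe sets on dm3 (BDGP Release 5). Expression put the genes on the list. Peaks bore on the choice through the 11 panel genes left out, which the study drew with their peaks in view and which were rich in peaks (88 *ab* and 132 *scrib-*+*ab*), so the counts of the 161 genes are those of the list without them.

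The chromatin came from eye/antennal discs of larvae, the epithelial sacs that form the eye, antenna and head of the adult fly, at day 5. Both genotypes carried clones, made by mitotic recombination with *ey-FLP1*, a flippase under an eye disc enhancer, in which *Tub-GAL4*, a ubiquitous driver, switched on the *UAS-ab55* transgene. In the *ab* genotype the clones overexpressed *ab* alone, and in the *scrib-*+*ab* genotype they were also homozygous for *scrib1* on the FRT82B chromosome. The discs were mosaics, so chromatin of cells outside the clones is included. Each genotype has 1 library immunoprecipitated with a rabbit antibody to Ab, pooled from several immunoprecipitations, and 1 input library made without antibody, against which the authors called the peaks. With 1 library per genotype no value has a replicate error, and differences between the genotypes are differences between these libraries and were not tested.

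Abrupt (Ab) belongs to the BTB-zinc finger proteins, in which the BTB domain lets the molecules pair and the zinc fingers contact DNA. In the fly it is known for the guidance of motor axons and for the shape of sensory dendrites. Scribbled (Scrib) is a scaffold protein of the septate junction that keeps the apical and basal sides of epithelial cells apart, together with Discs large and Lethal giant larvae. A peak is an interval in which the pull-down exceeded the input and marks where chromatin carrying Ab was enriched. The lists give the position and length of a peak but no height, and a peak in a span does not show that the gene responds to Ab.

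Peaks lay in the spans of 78 of the 161 genes in the *ab* library, which is 48.4% (exact Clopper-Pearson 95% interval 40.5 to 56.4%). Long spans meet more peaks by their length alone, so every span was also moved to every possible position in its own arm. The mean over these positions, called the placement mean here, was 38.2% of spans with an *ab* peak. In the *scrib-*+*ab* library 85 genes had a peak, or 52.8% (44.8 to 60.7%), against 40.3% of positions. Peaks of both libraries were found in 69 genes (42.9%), against 34.0% of positions. Another 9 genes had peaks in the *ab* library alone, 16 in the *scrib-*+*ab* library alone, and 67 in neither. These intervals cover counting error only and treat genes as independent, although all genes were read in the same library.

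The spans held 318 *ab* peaks, against a placement mean of 267, and 400 *scrib-*+*ab* peaks, against 327. The ratios of 1.19 and 1.22 fell to 1.08 and 1.11 without the 6 genes of 100 kb or more. Chromatin around the genes was also above the arm as a whole. Between 20 and 50 kb outside the spans there were 0.0863 *ab* peaks and 0.102 *scrib-*+*ab* peaks per kb, against 0.0747 and 0.0919 per kb over the arms and 0.0896 and 0.113 per kb within the spans. The values within the spans count any overlap and the others count midpoints. By midpoint the spans held 302 *ab* and 394 *scrib-*+*ab* peaks. The number of peaks per kb in the spans was thus close to that of their neighbourhood.

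Where the alignments of a gene lie far apart, the span covers sequence that no probe set of the gene reaches. In 14 genes such a gap exceeded 10 kb, and of the 107 *ab* peaks in these spans 27 met an alignment, as did 30 of 130 *scrib-*+*ab* peaks. In the other 147 genes 208 of 211 *ab* peaks and 266 of 270 *scrib-*+*ab* peaks met one. Counted over aligned bases alone, the ratios to the placement mean were 1.07 for *ab* and 1.10 for *scrib-*+*ab*. Peaks in a gap were counted as peaks of the gene, but whether the sequence belongs to the transcript was not tested.

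Genes of middle length stood furthest above the placement mean. Of the 52 genes with spans under 5 kb, 7 had an *ab* peak (13.5%, 5.59 to 25.8%, against 12.5% of positions) and 9 a *scrib-*+*ab* peak (17.3%, 8.23 to 30.3%, against 13.4%). In the 52 genes of 5 to under 20 kb the numbers were 25 for *ab* (48.1%, 34.0 to 62.4%, against 30.4%) and 27 for *scrib-*+*ab* (51.9%, 37.6 to 66.0%, against 32.6%). The 37 genes of 20 to under 50 kb had an *ab* peak in 29 cases (78.4%, 61.8 to 90.2%, against 61.3%) and a *scrib-*+*ab* peak in 32 (86.5%, 71.2 to 95.5%, against 65.0%). In these middle classes every interval lay above the placement mean. Among the 20 genes of 50 kb and over, 17 had a peak in each library (85.0%, 62.1 to 96.8%), against 83.4% of positions for *ab* and 85.6% for *scrib-*+*ab*. By this share the shortest and the longest genes were near their background in both libraries. At 50 kb and over a background this high leaves little room for an excess. By number, genes under 5 kb held 8 *ab* peaks against a placement mean of 10.9, and 11 *scrib-*+*ab* peaks against 13.1. Genes of 50 kb and over held 138 against 122 and 166 against 149.

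**Figure D1:**
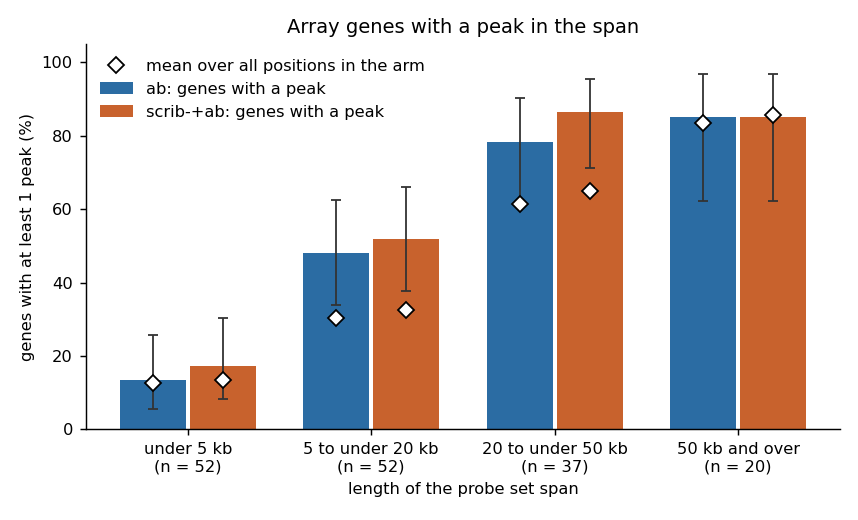
Share of the array genes with at least 1 peak in the span (per cent, bars) by length of the span, for the *ab* and *scrib-*+*ab* libraries, with exact 95% intervals (lines) and the mean over all positions of the same spans in their arms (diamonds). The bars of 5 to under 20 kb (48.1% and 51.9%) and of 20 to under 50 kb (78.4% and 86.5%) lie above their diamonds, and those of the other classes lie near them.

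Genes that the study heads by a CG number, the identifier of a predicted gene, were compared with those headed by a name. Named genes had longer spans, with a median of 16.2 kb against 5.86 kb. Of the 92 named genes 48 had an *ab* peak (52.2%, 41.5 to 62.7%), against 43.9% of positions, and 53 had a *scrib-*+*ab* peak (57.6%, 46.9 to 67.9%), against 46.2%. Of the 69 genes under a CG number 30 had an *ab* peak (43.5%, 31.6 to 56.0%), against 30.7%, and 32 had a *scrib-*+*ab* peak (46.4%, 34.3 to 58.8%), against 32.6%. The CG genes thus had fewer genes with a peak but a higher ratio of peaks to the placement mean, 1.36 for *ab* and 1.38 for *scrib-*+*ab*, than the named genes with 1.12 and 1.16. By length class, the largest part of that excess was in CG genes of 5 to under 20 kb. These held 31 *ab* peaks against a placement mean of 17.4 and 39 *scrib-*+*ab* peaks against 21.3. Of these, *CG6854* alone gave 6 and 12. CG genes of 20 to under 50 kb held 34 against 27.9 and 48 against 34.4. Those of 50 kb and over held 31 against 22.5 and 34 against 28.4. Of these *ab* peaks, 14 in *CG34360* and 6 in *CG42342* met no alignment. CG genes under 5 kb held 5 against 6.62 and 6 against 7.87. The order of the headings turned in places. At 20 to under 50 kb the *ab* ratio was 1.22 for CG and 1.30 for named genes. Under 5 kb the *scrib-*+*ab* ratio was 0.762 for CG and 0.955 for named genes. In the other comparisons by class the CG ratio was the higher. The current annotation (RefSeq Release 6) gives a name to 26 of the CG genes, *kibra* and *Sema2b* among them.

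A few genes held many of the peaks. In the *ab* library 15 genes held at least 50% of all peaks in spans, 24 genes held 5 or more, and 24 held a single peak. In the *scrib-*+*ab* library 14 genes held at least 50%, 30 held 5 or more, and 28 held 1. Peak number followed span length across genes, with Spearman's rank correlation of 0.684 for *ab* and 0.692 for *scrib-*+*ab* (161 genes, which share a library and are not replicates). Within the class of 20 to under 50 kb the correlation was 0.391 and 0.304.

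**Figure D2:**
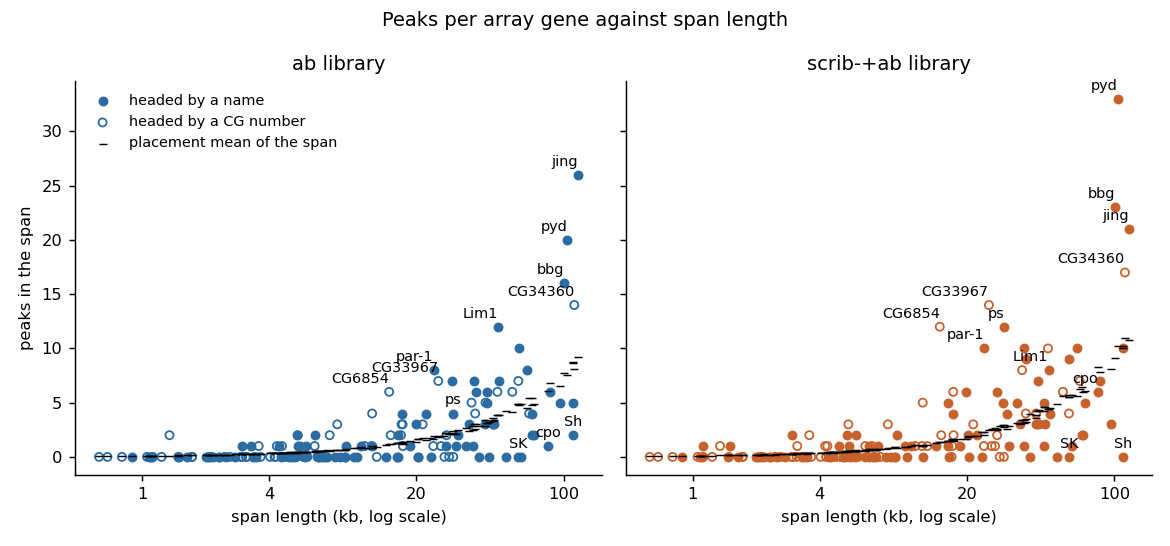
Number of *ab* peaks (left) and *scrib-*+*ab* peaks (right) in the span of each of the 161 array genes against span length in kb (log scale). Filled circles are genes headed by a name, open circles genes headed by a CG number, and dashes the placement mean of each span. *jing*, *pyd* and *bbg* lie furthest above the dashes in the *ab* library, and *pyd*, *bbg* and *CG33967* in the *scrib-*+*ab* library. *Sh*, *SK* and *cpo* lie at or near 0 in the *ab* library in spans of 110, 60.9 and 83.9 kb.

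The genes richest in peaks were *jing*, *pyd*, *bbg* and *CG34360*, all with spans of about 100 kb or more. *jing*, which encodes a zinc finger transcription factor, held 26 *ab* and 21 *scrib-*+*ab* peaks in 117 kb (2R, 2390272 to 2506901), against placement means of 9.17 and 10.8. The longest *ab* peak in any of the spans, 1164 bp, lay in *jing* (2R, 2401643 to 2402806). *jing* was the gene with the largest excess of *ab* over *scrib-*+*ab* peaks.

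*pyd* (*polychaetoid*), which encodes a ZO-1 type scaffold protein of adherens junctions, held 20 *ab* and 33 *scrib-*+*ab* peaks in 104 kb (3R, 4653199 to 4756978), against 7.51 and 10.2. Its 33 peaks were the most of any gene in the *scrib-*+*ab* library. The longest *scrib-*+*ab* peak in the spans, 717 bp (3R, 4752874 to 4753590), had its midpoint 3746 bp from the upper end of *pyd* and covered an *ab* peak of 669 bp (3R, 4752918 to 4753586). The fullest 10 kb of *pyd* held 7 *ab* and 11 *scrib-*+*ab* peaks, far from that pair, so the peaks of this gene lay in groups at several places. The alignments of *pyd* cover its span without a gap.

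*bbg* (*big bang*), which encodes a PDZ domain protein, held 16 *ab* and 23 *scrib-*+*ab* peaks in 100 kb (3L, 14405922 to 14506348), against 7.76 and 9.16. *CG34360*, named *Glut4EF* in Release 6, held 14 *ab* and 17 *scrib-*+*ab* peaks in 112 kb (3R, 5701396 to 5813521), against 8.11 and 11.0. Of these, 9 *ab* and 10 *scrib-*+*ab* peaks were in 10 kb near the lower end, starting 4.04 kb inside the span. In *jing*, *bbg* and *CG34360* the alignments cover 5.63%, 10.1% and 15.0% of the span, and 0 of their peaks in either library met an alignment. All peaks of these genes were therefore in the gaps. *Fili* (*Fish-lips*), which encodes a protein with leucine-rich repeats, held 10 *ab* and 9 *scrib-*+*ab* peaks in 61.0 kb (2R, 17771005 to 17831981), against 4.80 and 5.66, and all of these met an alignment.

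*CG34417* held 6 *ab* and 10 *scrib-*+*ab* peaks in 48.4 kb (X, 6434803 to 6483205), against placement means of 3.86 and 4.40. *CG3655* held 4 and 7 in 68.5 kb (X, 967938 to 1036400), against 5.46 and 6.22. Its fewer peaks included 1 pair of great length, an *ab* peak of 767 bp (X, 1028826 to 1029592) and a *scrib-*+*ab* peak of 586 bp (X, 1028936 to 1029521) inside it.

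Several shorter genes were denser in peaks than these. *CG6854* held 6 *ab* and 12 *scrib-*+*ab* peaks in 14.8 kb (3L, 15091236 to 15106074), against placement means of 1.16 and 1.36. At 0.404 *ab* peaks per kb it was the densest of the genes with at least 3 *ab* peaks. Its *ab* peaks were long, with 976 bp (3L, 15097289 to 15098264) and 714 bp (3L, 15094387 to 15095100) among the longest of any span. Where neighbouring peaks within 500 bp were joined, *CG6854* had 4 regions in each library, so the larger number of *scrib-*+*ab* peaks was not seen after joining. Release 6 gives more than 1 gene for this number, so it is left under its heading.

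*par-1*, which encodes a kinase of cell polarity, held 8 *ab* and 10 *scrib-*+*ab* peaks in 24.2 kb (2R, 15347437 to 15371608), against 1.91 and 2.25. The midpoints of all these peaks fell in a window of 10 kb that starts 2.26 kb from the lower end of the span, and they formed 3 joined regions in *ab* and 2 in *scrib-*+*ab*. The rest of the *par-1* span held no peak. *CG17834* held 4 *ab* and 5 *scrib-*+*ab* peaks in 12.3 kb (2L, 8529142 to 8541462), and *CG12054* held 3 and 3 in 8.42 kb (3R, 27046425 to 27054846).

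*CG33967* is *kibra* in Release 6, an upstream activator of the Hippo pathway, which restrains the growth of imaginal discs. *kibra* held 7 *ab* and 14 *scrib-*+*ab* peaks in 25.4 kb (3R, 10524605 to 10549978), against placement means of 1.84 and 2.50. It kept more regions in *scrib-*+*ab* when neighbouring peaks were joined, 10 against 5 in *ab*. Of the 14 *scrib-*+*ab* peaks 7 overlapped an *ab* peak, and the other 7 were between 19 and 179 bp long. The *ab* peaks of *kibra* overlapped a *scrib-*+*ab* peak in 6 of 7 cases, and the longest was 508 bp (3R, 10541895 to 10542402). The last *ab* peak of *kibra* crossed the upper end of the span (3R, 10549894 to 10550134). The alignments of *kibra* cover 5578 bp of the span and met 2 of the *ab* peaks and 1 of the *scrib-*+*ab* peaks.

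*ec* (*echinus*), which encodes a protein of the ubiquitin protease family needed for the removal of surplus cells from the pupal eye lattice, held 7 *ab* and 10 *scrib-*+*ab* peaks in 37.4 kb (X, 3713180 to 3750618), against 2.99 and 3.40. The midpoint of the *ec* peak nearest to the lower end lay 12075 bp inside the span. The alignments of *ec* cover 35.7% of the span and met 1 *ab* and 2 *scrib-*+*ab* peaks. In the whole span 5 *ab* and 5 *scrib-*+*ab* peaks overlapped, among them a pair of nearly equal extent with 329 bp in *ab* (X, 3729031 to 3729359) and 334 bp in *scrib-*+*ab* (X, 3729034 to 3729367).

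**Figure D3:**
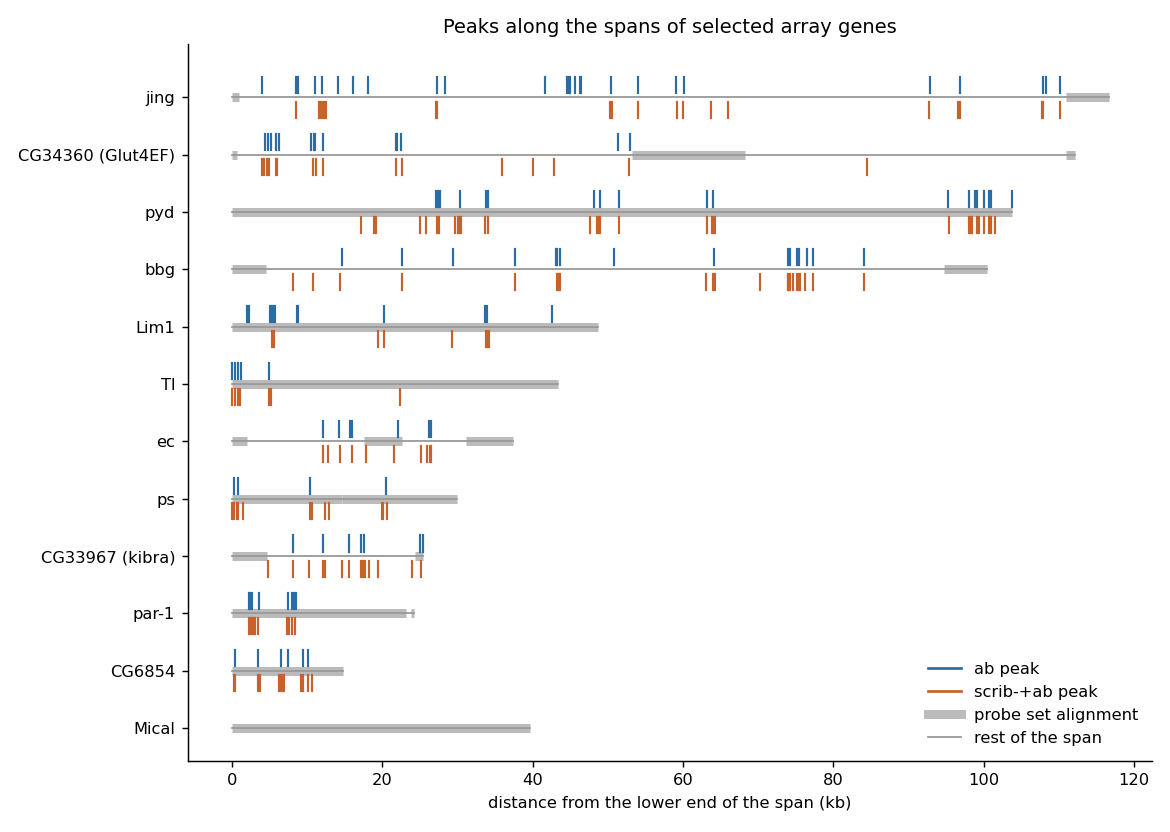
Peaks along the spans of 12 array genes, with *ab* peaks above and *scrib-*+*ab* peaks below each line, at their distance in kb from the lower end of the span. Thick grey bars are probe set alignments and thin lines the rest of the span. Peaks of *par-1* lie in the lower part of its span, those of *jing* lie in the gap between its alignments, and *Mical* has none.

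Genes for transcription factors and chromatin proteins differed widely among themselves. Of 14 such genes, 6 had an *ab* peak (42.9%, 17.7 to 71.1%) and 8 a *scrib-*+*ab* peak (57.1%, 28.9 to 82.3%). The shares of positions, 47.4% and 50.0%, lay within these intervals. Their 60 *ab* peaks were 1.88 times the placement mean of 31.9, against 1.19 for all genes. Their 52 *scrib-*+*ab* peaks were 1.32 times the mean of 39.3, against 1.22 for all genes. *jing* alone gave 26 and 21 of these, in the gap between its alignments, and without it the ratios were 1.49 and 1.09. Together they had fewer peaks in *scrib-*+*ab* than in *ab*, whereas over all 161 genes there were 1.26 *scrib-*+*ab* peaks for each *ab* peak. The lower total came from few genes, since 4 of the 14 held more *ab* peaks, 3 more *scrib-*+*ab* peaks and 7 equal numbers.

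*Lim1*, a LIM homeodomain factor of the distal leg and antenna, held 12 *ab* and 8 *scrib-*+*ab* peaks in 48.7 kb (X, 8651267 to 8699979), against 3.88 and 4.42. *lilli*, a transcription elongation factor of the AF4 family, held 8 and 10 in 66.6 kb (2L, 2885951 to 2952597). *Alh*, a PHD finger protein of the AF10 family, held 7 and 5 in 29.6 kb (3R, 2920321 to 2949907), including an *ab* peak of 776 bp. All of these had peaks shared by the libraries. *dsx* (*doublesex*), the DM domain factor of sex determination, held 6 *ab* and 3 *scrib-*+*ab* peaks in 43.1 kb (3R, 3750044 to 3793130). *sbb*, a zinc finger protein of disc patterning, held 1 peak in each library, of 202 and 189 bp, and neither met an alignment.

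*svp* (*seven-up*) is an orphan nuclear receptor that sets the fate of some photoreceptors. It held no *ab* peak and 3 *scrib-*+*ab* peaks of 35 to 82 bp in 44.0 kb (3R, 8084470 to 8128509), against 3.19 and 4.34. *sno* (*strawberry notch*), a nuclear protein of eye development, held 0 and 1 (38 bp) in 16.2 kb. Both thus had short peaks in the *scrib-*+*ab* library alone.

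*Dll* (*Distal-less*), the homeodomain factor of distal appendages, held no peak in 20.3 kb (2R, 20702352 to 20722686). The nearest *ab* peak lay 831 bp below its span. *mirr* (*mirror*), an Iroquois homeodomain factor of the dorsal eye, held none in 16.4 kb (3L, 12686847 to 12703243), yet an *ab* peak of 170 bp lay 180 bp below the span and a *scrib-*+*ab* peak of 264 bp lay 361 bp below it. *yemalpha*, a partner of the histone chaperone HIRA, also had no peak in its span of 4.55 kb, with a *scrib-*+*ab* peak 37 bp and an *ab* peak 506 bp beyond the upper end. A count within the span missed these neighbours. The bHLH zipper factor *Usf*, the dosage compensation subunit *msl-3* and the Mediator subunit *MED9* had spans under 5 kb without a peak, and their nearest peaks in either library were between 3786 and 9300 bp away.

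Of 15 genes of polarity, junctions and the cytoskeleton, 12 had an *ab* peak and 12 a *scrib-*+*ab* peak (80.0% each, 51.9 to 95.7%), against 62.5% and 65.6% of positions, both within the interval. They held 54 *ab* and 74 *scrib-*+*ab* peaks, or 1.15 and 1.26 times the placement mean, with 20 and 33 of them in *pyd*. Without *pyd* the direction turned, since the other 14 genes held 34 and 41 peaks, 0.865 and 0.845 times the placement mean. *dlg1*, which encodes the Discs large scaffold that acts with Scrib, held 6 *ab* and 9 *scrib-*+*ab* peaks in 38.1 kb (X, 11263669 to 11301780), against 3.04 and 3.46. Of these, 5 *ab* and 6 *scrib-*+*ab* peaks were in 10 kb near the lower end of *dlg1*. *hts*, which encodes adducin, held 1 *ab* peak and 6 *scrib-*+*ab* peaks in 27.6 kb (2R, 15284839 to 15312454), none of them overlapping. *Ank2* and *Mical*, of the same list, are described with the long genes. *tmod*, which encodes a protein that caps actin filaments, held 3 and 1 in 46.3 kb (3R, 26358335 to 26404627), again with no overlap. *zormin*, which encodes a muscle Z-disc protein, held 2 and 1, and its *scrib-*+*ab* peak of 370 bp (3L, 2148404 to 2148773) was among the 5 longest of that library in the spans. None of the *zormin* peaks met an alignment. *spas*, for the microtubule-severing enzyme spastin, held a single *ab* peak of 79 bp.

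Genes of RNA binding and translation held 14 *ab* peaks, 0.701 times the placement mean, and 33 *scrib-*+*ab* peaks, 1.30 times the mean, while all genes stood at 1.19 and 1.22. Of the 12 genes 7 had an *ab* peak (58.3%, 27.7 to 84.8%) and 6 a *scrib-*+*ab* peak (50.0%, 21.1 to 78.9%). The shares of positions, 31.9% and 34.6%, lay within these intervals. The difference in peak number lay in 3 long genes. *ps* (*pasilla*), a splicing regulator with KH domains, held 4 *ab* and 12 *scrib-*+*ab* peaks in 29.9 kb (3R, 5243663 to 5273597). *mbl* (*muscleblind*), a splicing factor of muscle and photoreceptors, held 5 and 10 in 110 kb (2R, 13153057 to 13263374). *cpo* (*couch potato*), an RNA-binding protein of the nervous system, held 1 and 6 in 83.9 kb (3R, 13757594 to 13841501). The excess shrank where neighbouring peaks were joined, to 3 against 5 regions in *ps* and 5 against 6 in *mbl*, and was 1 against 5 in *cpo*. Without *ps* the other 11 genes held 21 *scrib-*+*ab* peaks, 0.939 times the placement mean, so the ratio above 1 rested on that gene. All *ab* peaks of *ps* and *cpo* overlapped a *scrib-*+*ab* peak.

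Ribosomal and poly(A) genes have short spans. *Pabp2*, for the nuclear poly(A) binding protein, held 1 *ab* peak of 447 bp (2R, 4019175 to 4019621) in a span of 2.96 kb, with 2 *scrib-*+*ab* peaks inside it. This was the longest *ab* peak in any span under 5 kb. *RpL3*, a protein of the large ribosomal subunit, had an *ab* peak of 154 bp at the lower end of its span and no *scrib-*+*ab* peak, whereas *RpL35* had a *scrib-*+*ab* peak of 71 bp and no *ab* peak. *CG33169* held 2 *ab* peaks and 1 *scrib-*+*ab* peak in 1.35 kb (3L, 22856963 to 22858309). *CG9027*, the extracellular superoxide dismutase *Sod3* in Release 6, held 1 and 2.

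Of 9 signalling genes 6 had an *ab* peak (66.7%, 29.9 to 92.5%) and 8 a *scrib-*+*ab* peak (88.9%, 51.8 to 99.7%). The shares of positions, 52.5% and 54.6%, lay within these intervals. They held 20 *ab* and 35 *scrib-*+*ab* peaks, 0.961 and 1.42 times the placement mean. *Tl* (*Toll*), the receptor of innate immunity and dorsoventral patterning, held 5 *ab* and 7 *scrib-*+*ab* peaks in 43.4 kb (3R, 22624764 to 22668125). All *ab* peaks of *Tl* and 6 of the *scrib-*+*ab* peaks were in the lowest 10 kb of the span. *spri*, a Rab exchange factor, held 6 and 7 in 85.7 kb (X, 10384499 to 10470210), of which 5 and 6 lay within 10 kb. *norpA*, the phospholipase C of phototransduction, held 3 and 3 in 42.3 kb (X, 4216658 to 4258910). *egr* (*eiger*), the TNF ligand that activates JNK signalling, had no peak in its 5.15 kb, and an *ab* peak of 134 bp lay 475 bp below the span.

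Genes of adhesion, guidance and matrix were the only list of more than 3 genes, apart from transcription and chromatin, with fewer *scrib-*+*ab* than *ab* peaks. In 7 genes there were 20 *ab* and 16 *scrib-*+*ab* peaks, 0.893 and 0.587 times the placement mean, and the same 5 genes had a peak in each library (71.4%, 29.0 to 96.3%, against 62.7% and 65.0% of positions). *caps*, a cell surface protein with leucine-rich repeats, held 7 and 4 in 49.3 kb (3L, 13221788 to 13271131). *Tsp*, thrombospondin, held 4 and 2 in 22.3 kb (2L, 6686818 to 6709085), and *beat-IIIc* held 4 and 2 in 70.9 kb (2L, 17189809 to 17260732). In each of these the *scrib-*+*ab* number was lower, by 2 or 3 peaks. *Fas3* (*Fasciclin 3*), a homophilic adhesion molecule of the septate junction, differed as much the other way, with 2 *ab* and 5 *scrib-*+*ab* peaks in 72.5 kb (2L, 18320100 to 18392575). *tutl* held 3 and 3, and *trol* and *Timp* held none.

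The remaining lists were small. Of 3 ion channel genes only *olf186-F*, the calcium channel Orai, held peaks of both libraries, with 4 and 4 in 17.1 kb (2R, 13730949 to 13748075). Of 7 metabolic genes, *Glut1*, a glucose transporter, held 2 and 2 in 70.4 kb (3L, 914073 to 984440), where the placement means were 5.44 and 6.41. *Gpdh*, for glycerol 3-phosphate dehydrogenase, held 2 and 2 in 5.41 kb, and *PhKgamma*, for phosphorylase kinase, held 1 *ab* peak of 478 bp and 2 *scrib-*+*ab* peaks in 9.28 kb. A list of 3 genes, *Hsp67Bb* (*CG4456* in Release 6), *DnaJ-60* and *l(2)efl*, had no peak in spans under 5 kb, which is the usual result at that length.

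Of 57 genes of 20 kb and over, 45 had peaks of both libraries (78.9%, against 64.6% of positions), and 7 had none in either, where 23.6% of positions hold none. Long genes without a peak were thus fewer than by placement, but no interval was computed for this share. Among genes of 50 kb and over, 80.0% had peaks of both libraries, against 80.3% of positions. The spans of the 7 genes, picked here for their lack of peaks, sum to 256 kb. *SK*, a calcium-activated potassium channel, had none in 60.9 kb (X, 5234270 to 5295175), where 77.6% of positions hold an *ab* peak and 78.9% a *scrib-*+*ab* peak. *trol*, which encodes the matrix protein perlecan, had none in 53.4 kb (X, 2365015 to 2418402). *Mical*, an actin-disassembling enzyme downstream of Plexin, had none in 39.7 kb (3R, 5828032 to 5867720), with an *ab* peak 98 bp and a *scrib-*+*ab* peak 341 bp beyond the upper end of the span. The remaining members of this group were *Dll* above, *CG33960* (*Sema2b*, a secreted semaphorin) in 29.9 kb, *CG17816* in 28.6 kb and *tinc* in 23.4 kb. The nearest peak of *CG17816* and *tinc* was more than 20 kb away in both libraries.

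*Sh* (*Shaker*), a voltage-gated potassium channel, had the lowest count for its length among spans of 100 kb or more. It held 2 *ab* peaks, of 39 and 163 bp, and no *scrib-*+*ab* peak in 110 kb (X, 17823291 to 17933532), where 91.1% of positions hold an *ab* peak and 91.6% a *scrib-*+*ab* peak. *Ank2*, a neuronal ankyrin, held 0 and 1 in 63.0 kb (3L, 7648488 to 7711439), against 4.87 and 5.74. *CG34383* (*kmr*) held 0 and 1 in 27.1 kb, and *l(1)G0196* held 0 and 2 in 20.3 kb. The *scrib-*+*ab* peaks of *Ank2* and *CG34383* were 53 and 28 bp long.

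Across genes the counts of the libraries ran together, with Spearman's rank correlation of 0.833 over 161 genes (a description, since both lists were called on the same genome and by the same caller). Of the 94 genes with a peak in either library, 48 held more *scrib-*+*ab* peaks, 24 more *ab* peaks and 22 equal numbers. The ratio of 1.26 *scrib-*+*ab* peaks for each *ab* peak was near that of the whole lists, 1.23. Joining peaks within 500 bp left 216 *ab* and 250 *scrib-*+*ab* regions, a ratio of 1.16, with 40 genes higher in *scrib-*+*ab* and 29 higher in *ab*. With peaks of 40 bp or more only, the spans held 305 *ab* peaks in 77 genes and 300 *scrib-*+*ab* peaks in 73. With as many of the longest peaks as the shorter list holds, they held 318 in 78 genes and 317 in 74. The higher *scrib-*+*ab* counts were thus not seen under these 2 settings. Peaks under 40 bp were 4.09% of *ab* and 25.0% of *scrib-*+*ab* peaks in spans. In the full lists the largest excess of *scrib-*+*ab* peaks was in *pyd*, *ps*, *kibra*, *bbg* and *CG6854*. *jing*, *Lim1*, *caps* and *dsx* were among the genes with the largest excess of *ab* peaks.

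**Figure D4:**
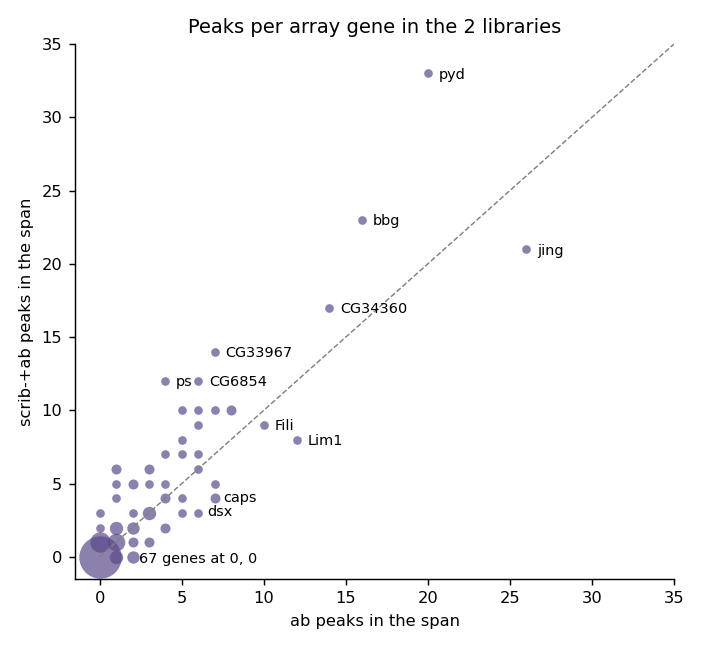
Number of *scrib-*+*ab* peaks against number of *ab* peaks in the span of each of the 161 array genes, with larger circles where several genes coincide. The dashed line marks equal numbers. 67 genes lie at 0 in both libraries, *pyd* and *bbg* lie above the line, and *jing* and *Lim1* lie below it.

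Within the spans 200 of 318 *ab* peaks overlapped a *scrib-*+*ab* peak by at least 1 bp (62.9%, 57.3 to 68.2%), and 233 of 400 *scrib-*+*ab* peaks overlapped an *ab* peak (58.2%, 53.2 to 63.1%). Elsewhere on the arms the shares were 59.0% and 58.2%, both within these intervals. Of the 69 genes with peaks of both libraries, 64 had at least 1 peak that overlapped a peak of the other library, in or outside the span. The other 5 were *CG31012* (*cindr* in Release 6), *CG34398*, *Hrb98DE*, *hts* and *tmod*. In *CG31038* and *CG33169*, counted among the 64, the overlapped *scrib-*+*ab* peak lay outside the span. The peaks inside these spans did not overlap each other.

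Peaks in the spans had ordinary lengths. The median was 150 bp for *ab* and 67.0 bp for *scrib-*+*ab*, against 151 and 69.0 bp elsewhere. In 197 pairs of peaks that overlapped each other most, the *ab* peak was the longer in 150 pairs (76.1%). For pairs elsewhere this share was 83.0%. In the 9 genes marked in *ab* alone the 13 peaks had a median length of 78.0 bp, and in the 16 genes marked in *scrib-*+*ab* alone the 19 peaks had a median of 48.0 bp. Most of these peaks were shorter than the median of their library, but 5 of the 13 *ab* peaks, in 4 genes, and 6 of the 19 *scrib-*+*ab* peaks, in 6 genes, were longer. The longest were 235 bp in *CG33993* (*Egfrap*) for *ab* and 93 bp in *CG6982* for *scrib-*+*ab*. The genes in *ab* alone were *B52*, *CG33993*, *CG5174*, *CG5326*, *GV1*, *PNUTS*, *RpL3*, *Sh* and *spas*. Those in *scrib-*+*ab* alone included *svp* with 3 peaks, *l(1)G0196* with 2 and with 1 each *Ank2*, *CG34383*, *CG4662* (*MICU3*), *CG6340*, *CG6982*, *CG8086*, *egh*, *Galpha49B*, *RFesP*, *RhoGAP71E*, *RpL35*, *sno*, *ssp2* and *Trc8*. Alone refers to the span. *B52* had a *scrib-*+*ab* peak 755 bp below it. *Galpha49B* and *RhoGAP71E* had an *ab* peak 253 and 581 bp below theirs.

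The ends of the spans were richer in peaks than their middle. Within 1 kb of an end, on the inner side, there were 0.159 *ab* and 0.256 *scrib-*+*ab* peak midpoints per kb. On the outer side of the ends there were 0.193 and 0.189 per kb, also above the means of the arms. From 1 to 5 kb inside the density fell to 0.0649 and 0.0930 per kb, and from 1 to 5 kb outside to 0.0745 and 0.0970 per kb. The zones from 1 to 5 kb were thus well below those within 1 kb on both sides of the end.

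**Figure D5:**
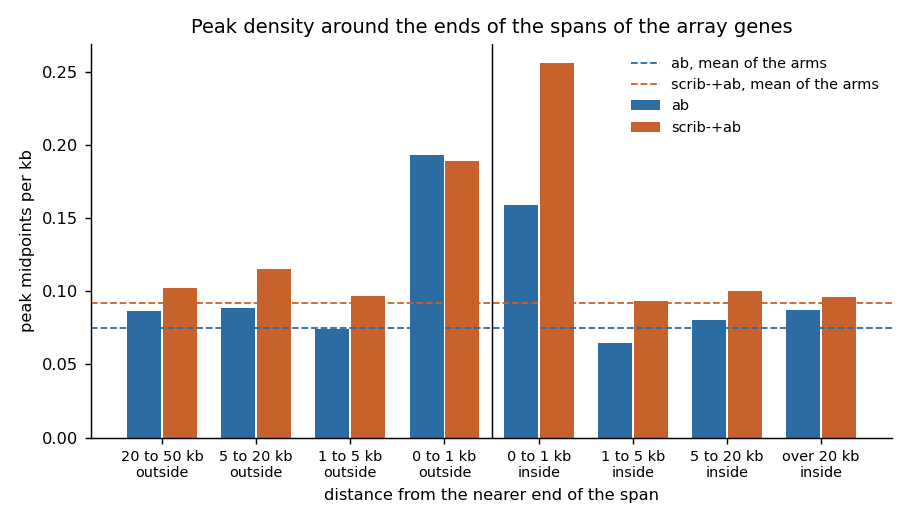
Peak midpoints per kb in 8 zones outside (left of the line) and inside (right of the line) the spans of the 161 array genes, by distance from the nearer end, for *ab* and *scrib-*+*ab*. Dashed lines are the means of the arms, 0.0747 and 0.0919 per kb. The zones within 1 kb of an end reach 0.159 to 0.256 per kb, and all others lie between 0.0649 and 0.115 per kb.

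Of the peaks in spans, 20.4% of *ab* (16.1 to 25.3%) and 21.2% of *scrib-*+*ab* (17.3 to 25.6%) had their midpoint within 1 kb of an end, where 8.70% of the span bases lie. The excess was present in the classes from 5 kb upward. Among genes of 5 to under 20 kb the shares were 43.1% (29.3 to 57.8%) and 41.2% (29.4 to 53.8%), against 20.1% of bases. Among genes of 20 to under 50 kb they were 22.3% and 22.6%, against 5.84%. Among genes of 50 kb and over they were 6.52% and 7.23%, against 2.46%.

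Counted by gene, 72 of 161 genes had an *ab* peak within 1 kb of an end on either side (44.7%, 36.9 to 52.7%), against 18.4% of positions. In the *scrib-*+*ab* library there were 74 genes (46.0%, 38.1 to 54.0%), against 19.7%. Most of these genes had the peaks at 1 end only. In *ab* 67 genes had them at a single end and 5 at both, and in *scrib-*+*ab* 68 and 6. The 56 genes with end peaks in both libraries had them at the same end in 56 cases. No share by placement was computed for 1 end, for both ends or for the same end, so these splits have no background here. The alignments give no strand, so the start and the end of a transcript cannot be told apart.

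*Tl*, *mbl*, *lilli* and *ps* had such peaks at the lower end alone, with 5, 3, 3 and 2 *ab* peaks and 4, 5, 4 and 4 *scrib-*+*ab* peaks. *Mical* had 2 and 2 at the upper end, all outside the span, and *hts* had 1 and 4 at the upper end. *mirr* had 3 *ab* peaks and 1 *scrib-*+*ab* peak at the lower end. In 14 genes for *ab* and 12 for *scrib-*+*ab* the peak near the end was the only sign, with none inside the span. *par-1*, by contrast, had no peak within 1 kb of either end in either library.

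The 67 genes without a peak were mostly short, 40 of them under 5 kb and 20 of 5 to under 20 kb. Of the 67, 12 had a peak of either library within 500 bp of the span, among them *mirr*, *Mical*, *egr*, *Fmr1* and *CG5091*. The median distance to the nearest peak was 6830 bp for *ab* and 8360 bp for *scrib-*+*ab*.

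By arm, the ratio of *ab* peaks to the placement mean ran from 0.940 on X (35 genes) to 1.58 on 2R (25 genes, with *jing*), and that of *scrib-*+*ab* peaks from 1.03 on 2L (27 genes) to 1.58 on 2R. The genes of 3R (45 genes) stood at 1.29 and 1.28, and those of 3L (29 genes) at 1.11 and 1.26. The 11 listed genes that have a browser panel, placed by the same rule, held 88 *ab* and 132 *scrib-*+*ab* peaks, 2.31 and 2.81 times their placement means. These values are a description of the choice that the study made for its panels.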

How the data were processed

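The authors aligned reads to dm3 with Bowtie and called peaks against input with PeakSeq. Each line of the deposited lists places a peak on an arm, and the score that the authors deposited is 1 throughout, so neither reads nor heights are given and the depth behind a peak is not known. Starts were converted to positions counted from 1. Gene headings and alignment positions, but no array calls, were taken from the text of the supplementary list of genes, which was read from page images, and 4 names with misread letters were corrected. A peak belonged to a gene when at least 1 bp lay in its span. Placement means and shares were computed exactly, over every possible start of the span between the first base of the arm and its last peak or alignment. Shares carry Clopper-Pearson 95% intervals. The counting was tested on simulated data, and no test was run, since each genotype has 1 library. Of the 161 genes, 157 matched 1 entry of RefSeq Release 6 on the same arm, used for names only. Lists of genes by role and the genes named were chosen with earlier results of these data known. The genes named were the 10 with the most peaks in each library, the 5 with the largest excess in either direction, the 5 densest in *ab* peaks among those with at least 3, those of 20 kb or more that lack a peak in a library, the 5 under 5 kb with the longest *ab* peak, those with the 5 longest peaks of each library, *ec* and *jing*, all transcription and chromatin genes, and up to 3 of each other list. Others named in the text were chosen after their values were seen. Of the genes that this rule selects, 1 is not reported here. Alternatives changed the span, the overlap, the peaks kept and the genes kept, and 1, the use of Release 6 names for the headings, was added after seeing the data, as were the count of peaks that met an alignment and the ratios of 3 lists without their fullest gene. Reads, inputs and array signals were not used here. Python 3.11.15, NumPy 2.4.6, SciPy 1.17.1 and Matplotlib 3.10.9 were used.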

Additional observations from a re-analysis of the deposited data

How the results depend on the processing

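Of 152 values under alternatives, 134 stayed within 1.5 times the count, or within the 95% interval, of the reported value. The 134 include values that could not move. Leaving out overlapping genes changed nothing. Keeping as many of the longest peaks as the shorter list holds left the *ab* list whole, and so its counts. Keeping the longer 50% of each list left 157 *ab* and 196 *scrib-*+*ab* peaks in spans, with an *ab* peak in 30.4% of CG genes and a *scrib-*+*ab* peak in 44.6% of named and 30.4% of CG genes. Joining peaks within 500 bp left 250 *scrib-*+*ab* regions. The overlap rule moved the shared peaks most. With a reciprocal overlap of 50% they were 29.2% of *ab* and 23.2% of *scrib-*+*ab* peaks, and with a gap of up to 500 bp 76.4% and 74.0%. The share of *scrib-*+*ab* peaks that overlapped an *ab* peak was 68.7% with peaks of 40 bp or more only and 67.2% with the longest peaks alone, as many as the shorter list holds. Counting only bases inside an alignment gave a ratio to the placement mean of 1.10 for *scrib-*+*ab* and shares near an end of 26.8% for *ab* and 28.0% for *scrib-*+*ab*. Without genes of 100 kb or more these shares were 26.4% and 27.7%, and within 500 bp of an end the *scrib-*+*ab* share was 14.2%. No span met that of another listed gene, so leaving out overlapping genes removed none. No paired analysis was possible because each genotype has 1 library. Peak height, depth and replicate spread are not in the lists, so the strength of binding at a gene and its precision between pools of discs are not known. Probe set spans can cover part of a gene, and the direction of transcription was not used.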
